A study of Homo sapiens with 8 samples.

Results

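The enzymes that make serine and pass its side-chain carbon to folate were followed in 8 RNA-seq libraries of Hep3B, a human hepatocellular carcinoma cell line. The 10 genes were chosen by name, as rows of the 2 deposited count tables that carried the symbols PHGDH, PSAT1, PSPH, SHMT1, SHMT2, MTHFD1, MTHFD1L, MTHFD2, MTHFD2L and ALDH1L2, and their transcripts were summed per gene. They are 10 of the 16169 genes listed in either table. All 10 were listed in the table of Hep3B and SOX4 knockout cells, with 26 transcripts, and 9 in the table of siRNA-transfected cells, where ALDH1L2 was not listed. Of these, 9 passed the filter on low counts in both comparisons, and ALDH1L2 was not tested.

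The 4 groups held 2 libraries each. Parental Hep3B cells (genotype WT) were set against Hep3B SOX4-/- cells, which come from earlier CRISPR/Cas9 work of the same group as lines #1 and #2. The methods of the study name both lines for the deposited knockout data, and the labels number the knockout libraries 1 and 2 without naming a line, so that the spread between them may be the spread between lines. Hep3B cells transfected with a scramble control siRNA were set against Hep3B cells transfected with STAT6 siRNA (genotype given as STAT6 knockdown). The labels give neither siRNA dose nor the time after transfection. The labels give all groups the same medium, MEM with fetal bovine serum, sodium pyruvate and a supplement of non-essential amino acids, a class to which serine belongs. The methods of the study add puromycin to the medium of the SOX4-/- cells, so that effects of the drug and of the knockout cannot be told apart. Counts assigned to transcripts totalled 18484804 and 18123854 in the Hep3B libraries, 25353113 and 18924814 in the SOX4 knockout libraries. The totals were 18096907 and 20272261 with scramble siRNA and 16266282 and 22037721 with STAT6 siRNA. Nothing in the labels says that the libraries of a group came from separate cultures, so that p-values measure the spread between these samples, which may be technical.

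Serine is made from a glycolytic intermediate in a short chain of reactions. PHGDH oxidizes phosphoglycerate, PSAT1 transfers an amino group and PSPH removes the phosphate. Serine hydroxymethyltransferases then split serine into glycine and a folate-bound carbon unit. This happens in the cytosol through SHMT1 and in mitochondria through SHMT2. In mitochondria MTHFD2 or its relative MTHFD2L oxidizes the folate-bound unit and MTHFD1L releases it as formate, whereas ALDH1L2 oxidizes it to carbon dioxide. MTHFD1 carries out the matching reactions in the cytosol, where formate from mitochondria is taken up for purine and thymidylate synthesis. MTHFD2 is known as an enzyme of embryonic and tumor cells that is low in most adult tissues. The transcription factor ATF4 is a known activator of PHGDH, PSAT1, SHMT2 and MTHFD2.

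Sequences before the transcription start were read from RefSeq for the 7 of 10 genes that matched (GRCh38.p14, 250 bases upstream of the start). SHMT2, PSPH and ALDH1L2 had no match. Shown are the promoters of the 3 genes that passed the test in the knockout, and that of SHMT1, whose counts lay on the other side of the parental level. The transcript models in the count tables begin inside these windows. Capitals mark matches to the searched motifs on either strand, which were TGATGNAA (the ATF4 type), TTC and GAA with 4 bases between them (the STAT type), ACAAAG and ACAATG (the SOX type), a wider SOX type (A or T at the first, the second and the sixth base, with CAA between and G at the end), CCAAT and CACGTG.
PHGDH, chr1:119711684-119711933, plus strand: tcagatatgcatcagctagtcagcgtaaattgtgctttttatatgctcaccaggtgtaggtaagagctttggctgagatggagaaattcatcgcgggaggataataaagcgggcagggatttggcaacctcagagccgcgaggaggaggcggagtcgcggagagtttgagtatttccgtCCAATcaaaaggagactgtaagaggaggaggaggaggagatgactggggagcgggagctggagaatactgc
PSAT1, chr9:78296875-78297124, plus strand: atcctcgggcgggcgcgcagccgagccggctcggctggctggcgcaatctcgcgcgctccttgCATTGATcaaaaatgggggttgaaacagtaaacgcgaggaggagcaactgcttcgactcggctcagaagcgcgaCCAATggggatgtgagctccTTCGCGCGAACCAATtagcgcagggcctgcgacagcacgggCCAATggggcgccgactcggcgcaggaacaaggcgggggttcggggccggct
MTHFD2, chr2:74198365-74198614, plus strand: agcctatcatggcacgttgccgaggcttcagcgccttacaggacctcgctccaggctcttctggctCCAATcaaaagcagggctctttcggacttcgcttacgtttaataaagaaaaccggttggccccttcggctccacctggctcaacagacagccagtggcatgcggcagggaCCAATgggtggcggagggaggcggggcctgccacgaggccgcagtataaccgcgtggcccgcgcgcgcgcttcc
SHMT1, chr17:18363551-18363800, minus strand: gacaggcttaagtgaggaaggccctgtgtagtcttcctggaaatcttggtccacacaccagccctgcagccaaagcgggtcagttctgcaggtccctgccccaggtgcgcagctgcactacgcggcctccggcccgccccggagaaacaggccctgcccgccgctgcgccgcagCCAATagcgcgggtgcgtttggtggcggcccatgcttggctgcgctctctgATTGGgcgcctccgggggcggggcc
CCAAT, the box bound by NF-Y, was the shared feature. It occurred in 6 of the 7 promoters, beside 32% of 35116 RefSeq promoter windows of the same length. The matches in PHGDH, MTHFD1 and MTHFD1L lie past the start of a counted transcript. PSAT1 held 3 copies, MTHFD2 and SHMT1 2 copies each, and PHGDH 1 copy. The STAT motif occurred only in PSAT1, directly before a CCAAT box (5.38% of all windows). TGATGNAA occurred only in MTHFD1L (3.14% of all windows), and CACGTG in MTHFD1 and MTHFD1L (6.34%). The MTHFD1 window lies wholly past the start of its counted transcript. TGATGNAA in MTHFD1L lies past the starts of all counted transcripts of that gene. Neither ACAAAG (13.7% of all windows) nor ACAATG (9.29%) occurred in any of the 7, and the wider SOX type, added after the values were seen, occurred in PSAT1 alone (17.9% of all windows). These are matches of letters in 250 bases before a RefSeq start. They do not say whether SOX4 or STAT6 bind MTHFD2 or any other of these genes, and the binding assays of the study were not analysed here. The paper reports putative SOX4 and STAT6 sites in the proximal MTHFD2 promoter, and lower reporter activity when either site was mutated. The SOX and STAT patterns searched here matched nothing in the MTHFD2 window, so that they did not mark those sites.

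SHMT2 has transcripts with different start codons, and the counts below differ between them. The coding sequence of the longer form (GRCh38, chr12, plus strand, spliced) is shown from its first start codon at position 57229779, with the first and the downstream start codon, at 57230833, in capitals.
SHMT2 coding start: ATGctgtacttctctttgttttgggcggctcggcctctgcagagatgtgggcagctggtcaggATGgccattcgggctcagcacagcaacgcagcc
The start codons lie 63 bases, or 21 codons, apart in the same frame. As background, the stretch between them belongs to the leader that directs SHMT2 to mitochondria, and the form that starts downstream is known as a cytosolic and nuclear enzyme.

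The targeted genes were read first. STAT6 was counted at 32 and 13.2 CPM (counts scaled to a common library size, here within its table) in Hep3B and at 2.76 and 2.2 CPM in SOX4 knockout cells. It was 9.05-fold lower in the knockout (log2 fold change -3.18, SE 0.57, adjusted p = 0.0275, edgeR quasi-likelihood test). STAT6 moved to -2.46 on the log2 scale when Hep3B library 1 was left out, and did not pass when knockout library 1 or 2 was (adjusted p = 0.141 or 0.196, edgeR). A gene or transcript passed the test where its p, adjusted over all features of the fit by the Benjamini-Hochberg method, was below 0.05. In the siRNA experiment STAT6 stood at 42.5 and 31.4 CPM with scramble siRNA and at 9.92 and 5.98 CPM with STAT6 siRNA. The groups did not overlap, and the log2 fold change was -2.22 (SE 0.72, 95% confidence interval -3.76 to -0.67), with an adjusted p of 1.00 from edgeR in a fit without the library number as a term. With the library number as a block STAT6 passed (log2 fold change -2.25, adjusted p = 4.1e-20, edgeR). SOX4 itself was counted at 799 and 266 CPM in Hep3B and at 298 and 302 CPM in the knockout, so that the groups overlapped (log2 fold change -0.83, SE 0.54, adjusted p = 0.372, edgeR). The value was 0.11 without Hep3B library 1 and -1.42 without library 2. A gene-level count does not read the edited bases, so that SOX4 mRNA is no check of the knockout.

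In SOX4 knockout cells 3 of the 9 tested enzymes fell, and none rose. They were PHGDH and PSAT1 of serine synthesis and MTHFD2 of the mitochondrial arm. The cytosolic enzymes SHMT1 and MTHFD1 did not pass the test. Among all 14415 genes tested, 849 passed (5.89%), of which 201 (1.39%) were lower and 648 (4.5%) higher in the knockout. With GC and length offsets 579 passed, 66.3% of them higher. In 7 of the 9 enzymes both knockout libraries lay below both Hep3B libraries, beside 27.4% of all genes tested. The unadjusted p was below 0.05 and the value lower in the same 7 enzymes, beside 10.5% of all genes. The median log2 fold change of the 9 was -1.4, against 0.01 over all genes tested. The enzymes were chosen with earlier results of these data known, so that these shares describe the set and test nothing.

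**Figure D1:**
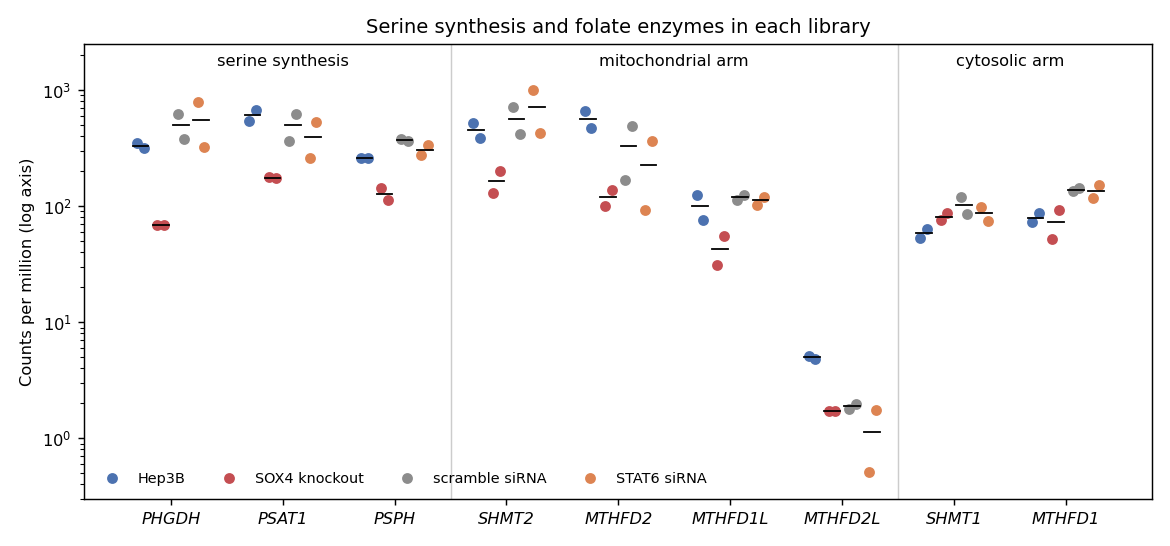
Level of each enzyme in each library, in CPM on a log axis, with points for the 2 libraries of a group and bars for their mean. The SOX4 knockout points of PHGDH, PSAT1, PSPH, SHMT2, MTHFD2, MTHFD1L and MTHFD2L lie below both Hep3B points, and those of SHMT1 lie above them; ALDH1L2, at most 0.99 CPM, is not drawn.

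PHGDH, on chr1:119711796-119744226, catalyzes the first step of serine synthesis. It stood at 348 and 317 CPM in the Hep3B libraries and at 69 CPM in both SOX4 knockout libraries (scaled over all 8 libraries, as are the CPM values of the enzymes below). The means were 333 ± 22.2 and 69 ± 0.0348 CPM (SD, n = 2). Scaled within the table, the knockout libraries stood at 78.8 and 76.8 CPM, so that so small an SD rests on the scaling. The fall was 4.62-fold (log2 fold change -2.21, SE 0.36, 95% confidence interval -3.04 to -1.38, adjusted p = 0.0226). Fold changes were fitted within each table, whose scale differed from that of the CPM values by 0.061 on the log2 scale in the knockout comparison and by -0.05 in the siRNA comparison. PHGDH had the smallest adjusted p of the 9 enzymes in this comparison.

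PSAT1, the aminotransferase of the chain (chr9:78297075-78330093), was counted at 542 and 679 CPM in Hep3B and at 178 and 175 CPM in the knockout. The groups lay apart by far more than their spread, and the fall was 3.3-fold (log2 fold change -1.72, SE 0.39, adjusted p = 0.0455). This call sat close to the threshold. It was lost with the library number as a block (adjusted p = 0.0551), with GC and length offsets (0.0535) and with at least 10 counts asked of every library (0.0529), all in edgeR. PSPH, the phosphatase that ends the chain (chr7:56011051-56051575), stood at 260 and 262 CPM in Hep3B and at 143 and 112 CPM in the knockout. Its groups did not overlap either, yet it did not pass the test (log2 fold change -0.97, SE 0.36, 95% confidence interval -1.79 to -0.14, adjusted p = 0.141).

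MTHFD2, the mitochondrial dehydrogenase and cyclohydrolase (chr2:74198563-74215297), was counted at 664 and 475 CPM in Hep3B. In the knockout libraries it stood at 99.8 and 138 CPM. It fell 4.61-fold (log2 fold change -2.21, SE 0.42, 95% confidence interval -3.18 to -1.23, adjusted p = 0.0319). SHMT2, which feeds carbon into this arm (chr12:57229573-57234935), stood at 520 and 388 CPM in Hep3B and at 130 and 202 CPM in the knockout. The groups did not overlap, but the summed count did not pass the test (log2 fold change -1.4, SE 0.41, 95% confidence interval -2.36 to -0.44, adjusted p = 0.0880 in edgeR). DESeq2 called SHMT2 (log2 fold change -1.43, adjusted p = 0.0118).

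MTHFD1L, the mitochondrial synthetase that releases formate (chr6:150865679-151101887), was counted at 125 and 75.3 CPM in Hep3B and at 30.9 and 55.2 CPM in the knockout (log2 fold change -1.17, SE 0.43, adjusted p = 0.143). MTHFD2L, the paralog of MTHFD2 found in adult tissues (chr4:74158112-74303097), was low throughout, at 5.13 and 4.8 CPM in Hep3B and 1.72 and 1.73 CPM in the knockout (log2 fold change -1.46, SE 0.55, adjusted p = 0.145). Neither passed the test, although neither showed overlap between the groups. ALDH1L2 (chr12:105019784-105084563) had 8 and 20 counts in the Hep3B libraries and 6 and 0 counts in the knockout libraries, too few to test.

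Neither of the cytosolic enzymes passed. SHMT1 (chr17:18327860-18363563) stood at 53.3 and 63.3 CPM in Hep3B and at 75.4 and 86.9 CPM in the knockout. Both knockout libraries were above both Hep3B libraries, as in 30.6% of all genes tested, and the difference did not pass the test (log2 fold change 0.54, SE 0.33, 95% confidence interval -0.23 to 1.3, adjusted p = 0.343). MTHFD1 (chr14:64388041-64460007) was counted at 72.6 and 86.6 CPM in Hep3B and at 51.9 and 92.8 CPM in the knockout, so that the Hep3B values lay inside the knockout range (log2 fold change -0.08, SE 0.38, 95% confidence interval -0.97 to 0.81, adjusted p = 0.915). The interval for MTHFD1 leaves out falls as large as those fitted for PHGDH, PSAT1 or MTHFD2.

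The calls rested on having both knockout libraries. Without either one of them, 0 of the 9 enzymes passed, beside 73 of 14802 and 21 of 15007 genes in all, with PHGDH at an adjusted p of 0.182 and 0.195, PSAT1 at 0.288 and 0.279 and MTHFD2 at 0.241 and 0.182 (edgeR, without knockout library 1 and 2 in turn). The log2 fold changes moved little, between -2.3 and -2.18 for PHGDH, -1.92 and -1.58 for PSAT1 and -2.46 and -1.98 for MTHFD2 over the 4 libraries left out in turn. Without Hep3B library 2, 5 enzymes passed, as SHMT2 (adjusted p = 0.0391) and MTHFD1L (0.0493) joined the 3, beside 1322 of 14870 genes in all. Fitted over all 8 libraries, 1 enzyme passed, PHGDH (438 of 14313 genes in all). With DESeq2 4 enzymes passed, SHMT2 beside the 3 (2160 of 14415 genes in all). With at least 10 counts asked of every library PHGDH and MTHFD2 passed and PSAT1 did not (adjusted p = 0.0529; 518 of 12945 genes in all).

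**Figure D2:**
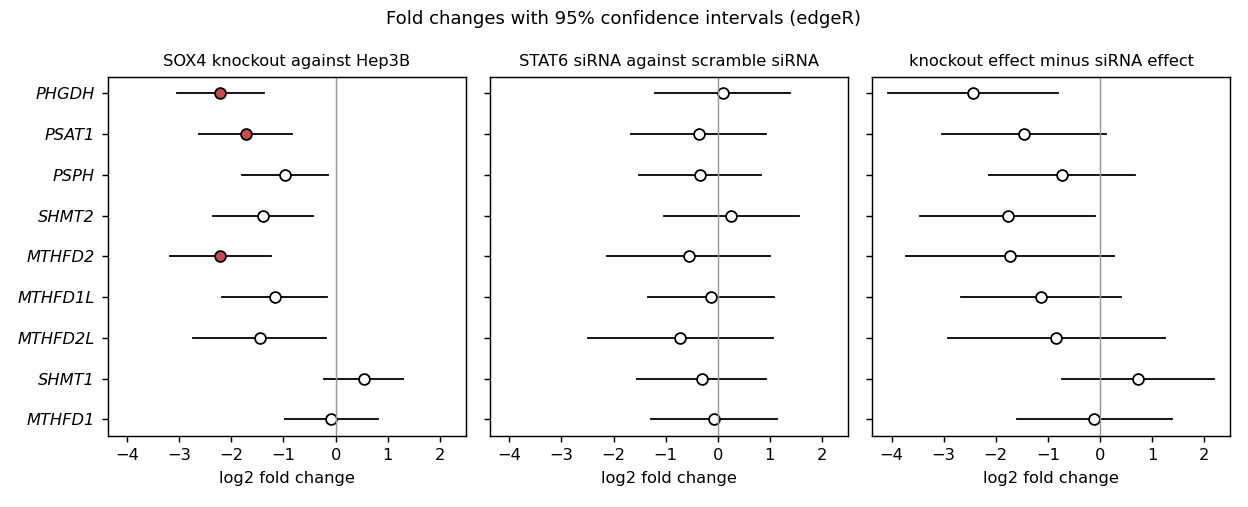
Log2 fold change of each enzyme (points) with its 95% confidence interval (lines) in the knockout comparison, in the siRNA comparison and for the difference of their effects; filled points passed edgeR's test at an adjusted p below 0.05. Filled points occur in the knockout comparison alone, for PHGDH, PSAT1 and MTHFD2.

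At the transcript level the single change that passed was in SHMT2. Its 9 listed transcripts fall into 3 that begin at position 57229573 and are annotated in GENCODE with the first start codon, and 6 that begin between 57230045 and 57230366 and are annotated with the downstream start codon shown above. Of these, 1 of the 3 and 3 of the 6 are noncoding records in RefSeq and targets of nonsense-mediated decay in GENCODE, and their counts are part of the groups. This grouping was made after the values were seen. The main longer transcript, NM_005412, had 2956.7 and 2181.4 counts in Hep3B and 2495.9 and 2498.1 counts in the knockout (log2 fold change -0.29, SE 0.39, adjusted p = 0.738). NM_001166357, in Hep3B the most counted transcript with the downstream start, had 3297.1 and 2173.7 counts in Hep3B and 240.3 and 185.6 counts in the knockout, where NM_001166359 was counted more often (617.3 and 698.9). NM_001166357 fell 15.7-fold (log2 fold change -3.97, SE 0.43, 95% confidence interval -4.98 to -2.96, adjusted p = 0.0263) and was the only transcript of the 10 genes that passed this test. The alternatives were read for 5 transcripts of SHMT2 and MTHFD2 and not for the others. With at least 10 counts asked of every library, MTHFD2 NM_006636 (adjusted p = 0.0443) and SHMT2 NR_048562 (0.0442) passed too in edgeR, beside 420 of 22604 transcripts in all. DESeq2 called these 2 and SHMT2 NM_001166359 as well (adjusted p = 4.4e-05, 4.2e-06 and 0.0104), beside 2406 of 27995. Among all 27995 transcripts tested 199 (0.711%) passed, 48 of them lower (0.171%), and in the siRNA comparison none of 25652 did (0%). Without knockout library 1 or 2 its adjusted p was 0.132 or 0.103.

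The other SHMT2 transcripts that begin downstream did not pass. NM_001166359 had a log2 fold change of -1.68 (SE 0.42, adjusted p = 0.0977), NR_029415 of -1.94 (SE 0.41, adjusted p = 0.0779) and NR_048562, a noncoding record, of -4.23 (SE 0.88, adjusted p = 0.0740). NR_048562 ranged from -5.79 without knockout library 2 to -3.43 without knockout library 1, and passed without Hep3B library 1 or 2 (adjusted p = 0.0287 or 0.0231, edgeR). NM_001166358 stood at -0.64 (SE 0.52, adjusted p = 0.551). The split did not follow the start in every case, since the noncoding NR_029417, which begins with the longer form, had 49.5 and 316.9 counts in Hep3B and 10.6 and 6.7 counts in the knockout (log2 fold change -4.6, SE 1, adjusted p = 0.0797). At this level PHGDH NM_006623 (adjusted p = 0.0532) and MTHFD2 NM_006636 (adjusted p = 0.0666) lay just outside the threshold, with log2 fold changes of -2.21 and -2.24. Counts of overlapping transcripts are estimates that divide shared reads, so that the transcripts of one gene do not vary independently.

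Transcripts with the downstream start made up 69.9% and 68% of SHMT2 counts in the Hep3B libraries. In the knockout libraries they made up 35.8% and 38.4%, with scramble siRNA 34.3% and 38.2%, and with STAT6 siRNA 32.4% and 35.4%. The untransfected Hep3B libraries therefore stood apart from the other 6 libraries, those of scramble siRNA included, although these are Hep3B cells of the same genotype. In CPM, the downstream group stood at 364 and 264 in Hep3B and 46.5 and 77.6 in the knockout. The first-start group stood at 157 and 124 CPM in Hep3B and 83.4 and 124 CPM in the knockout. The cause of the difference between the untransfected and the scramble siRNA libraries was not tested, and the experiments were deposited as separate tables.

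**Figure D3:**
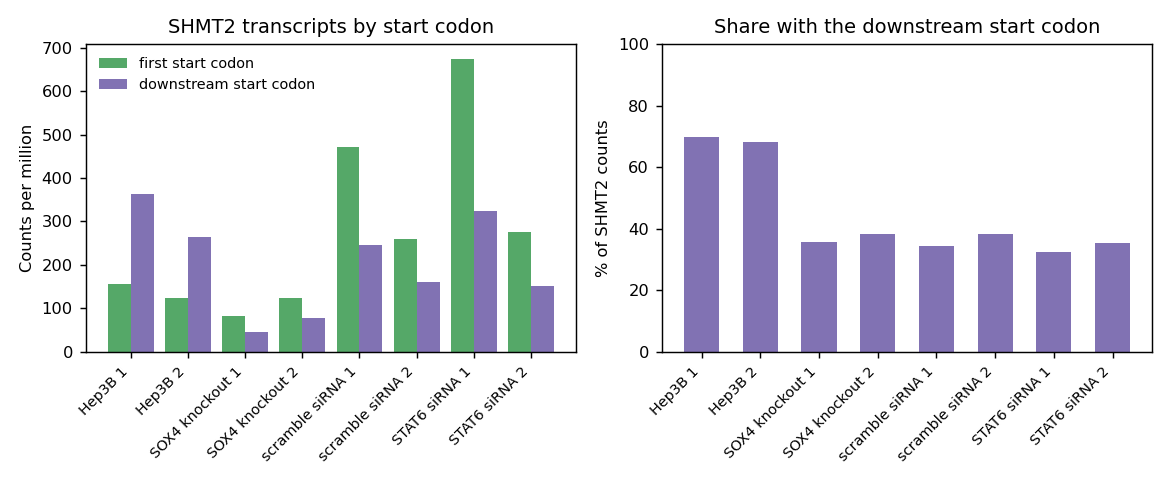
SHMT2 counts of transcripts with the first and with the downstream start codon in each library, in CPM (left), and the share of SHMT2 counts with the downstream start codon in percent (right). The Hep3B libraries are at 69.9% and 68%, and the other 6 libraries lie between 32.4% and 38.4%.

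MTHFD1L also has an alternative start. NM_001242768, which begins at position 150866333, made up 51.8% and 59.9% of MTHFD1L counts in Hep3B and 50.1% and 47.5% in the knockout. Its share was 41.7% and 39.8% with scramble siRNA and 34.6% and 28.8% with STAT6 siRNA. Neither this transcript (log2 fold change -0.52 with STAT6 siRNA, SE 0.56, adjusted p = 1.00) nor the other MTHFD1L transcripts passed the test. SHMT1 was mostly NM_004169, at 77.3% and 82.5% of its counts in Hep3B and 87.9% and 87.1% in the knockout. PHGDH, PSPH, MTHFD1 and MTHFD2L had 1 transcript each.

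Ratios of paralogs within a library need no scaling between libraries, and they set a gene of the mitochondrial arm against its relative. The sum for SHMT2 includes the transcripts with the downstream start, so that its ratio to SHMT1 is not a ratio of compartments. Counts of SHMT2 were 9.76 and 6.13 times those of SHMT1 in the Hep3B libraries and 1.72 and 2.33 times in the knockout libraries, so that the log2 ratio was 1.95 lower in the knockout (means 2.95 ± 0.48 and 1 ± 0.31, SD, n = 2). From the most counted transcript of each gene over the 4 libraries of the table alone, which was NM_005412 for SHMT2 and NM_004169 for SHMT1, the difference between the groups was -0.96. Summed over the Hep3B libraries, NM_001166357 was counted more often than NM_005412. MTHFD2 was counted 9.15 and 5.48 times as often as MTHFD1 in Hep3B and 1.92 and 1.49 times in the knockout. For MTHFD1L to MTHFD1 the ratio was 1.72 and 0.869 in Hep3B and 0.596 and 0.595 in the knockout. In each of these 3 ratios both knockout libraries were below both Hep3B libraries. With 2 libraries per group an exact permutation test cannot reach the threshold, and none was run.

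Divided by transcript length, SHMT2 (222), PSAT1 (194), PHGDH (181), MTHFD2 (143) and PSPH (127) had the highest mean CPM per kilobase over the 8 libraries, and their ranges overlapped. Their order differed between groups. PSAT1 was highest in Hep3B (282, against 260 for MTHFD2 and 212 for SHMT2) and in the knockout (81.7, against 77.4 for SHMT2), and SHMT2 was highest with scramble siRNA (265) and STAT6 siRNA (332). SHMT1 (35), MTHFD1 (33.9) and MTHFD1L (28.6) came next with overlapping ranges, and MTHFD2L (1.03) and ALDH1L2 (0.0532, over the 4 libraries of the knockout table) were lowest. In the knockout the mean of PHGDH (34.3) was level with that of SHMT1 (34.5). Over all 8 libraries, the lowest values of PHGDH (34.2) and MTHFD2 (42.7) were below the highest of SHMT1 (51.1). Of the length-scaled level summed over the enzymes listed in a table (10 for the knockout, 9 for the siRNA experiment), the cytosolic arm of SHMT1 and MTHFD1 took 3.88% and 5.08% in Hep3B and 13.9% and 16.2% in the knockout. It took 7.83% and 6.86% with scramble siRNA and 6.29% and 7.68% with STAT6 siRNA. The summed level of the cytosolic arm itself was 45.8 and 54.5 CPM per kilobase in Hep3B and 48.6 and 66.5 in the knockout, whereas that of the mitochondrial arm was 587 and 423 in Hep3B and 116 and 175 in the knockout.

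**Figure D4:**
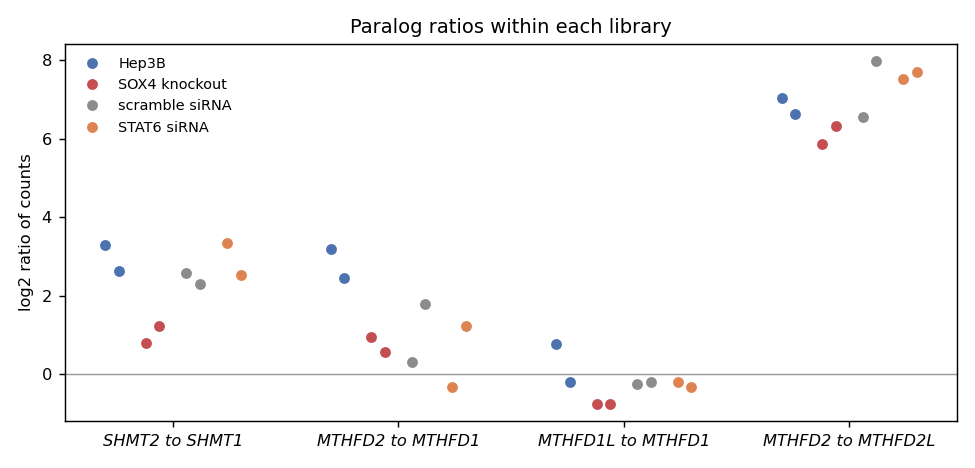
Log2 ratio of the counts of each pair of paralogs within each library, with points for the 2 libraries of a group. For SHMT2 to SHMT1 the knockout libraries are at 0.79 and 1.22, below the other 6 libraries, whereas for MTHFD2 to MTHFD1 the siRNA libraries spread from -0.33 to 1.79.

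None of the 9 enzymes tested passed in STAT6 siRNA against scramble siRNA. None of the 13554 genes tested did either (0%), with edgeR or with DESeq2, both fitted without the library number as a term. With that number as a block in edgeR, 62 of 13554 genes passed, STAT6 among them and no enzyme. With GC and length offsets added to the block, 343 genes and 1 enzyme, MTHFD2, passed. Without block and offsets, 14 genes (0.103%) had an unadjusted p below 0.05 in edgeR, none of them among the 9. The enzymes are therefore described by their values and intervals. Their median log2 fold change was -0.31, against -0.03 over all genes tested, and both STAT6 siRNA libraries lay below both scramble libraries in 2 of 9, beside 5.26% of all genes, and above both in none, beside 2.74%.

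MTHFD2 was counted at 167 and 494 CPM with scramble siRNA and at 93.5 and 362 CPM with STAT6 siRNA. The ranges overlapped, and the log2 fold change was -0.56 (SE 0.72, 95% confidence interval -2.12 to 1). With the library number as a block MTHFD2 did not pass (log2 fold change -0.69, adjusted p = 0.166, edgeR). With the block and GC and length offsets it passed (-0.47, adjusted p = 0.00645, edgeR). PHGDH stood at 618 and 382 CPM with scramble siRNA and 794 and 323 CPM with STAT6 siRNA (log2 fold change 0.09, SE 0.6, 95% confidence interval -1.2 to 1.38). PSAT1 stood at 367 and 625 CPM with scramble siRNA and 258 and 529 CPM with STAT6 siRNA (log2 fold change -0.37, SE 0.6, 95% confidence interval -1.66 to 0.93). The interval of PHGDH leaves out a fall of the size fitted in the knockout, that of MTHFD2 reaches to near it, and each of the 3 includes no change. The direction of each of the 3 turned with single libraries left out, over which MTHFD2 ranged from -1.93 to 0.44, PHGDH from -0.63 to 0.57 and PSAT1 from -1.05 to 0.09. Between libraries of the same number, MTHFD2 was lower with STAT6 siRNA in both pairs (log2 differences -0.93 and -0.45). PSAT1 was lower in both as well (-0.6 and -0.25), whereas PHGDH differed by 0.27 and -0.25. No label says that the number marks a shared day or batch.

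SHMT2 was counted at 718 and 421 CPM with scramble siRNA and at 998 and 426 CPM with STAT6 siRNA (log2 fold change 0.26, SE 0.6, from -0.42 without STAT6 siRNA library 1 to 0.76 without scramble siRNA library 1). The PSPH values were 382 and 368 CPM with scramble siRNA and 274 and 335 CPM with STAT6 siRNA (log2 fold change -0.35, SE 0.55), and MTHFD2L stood at 1.79 and 1.97 against 0.512 and 1.75 CPM (log2 fold change -0.72, SE 0.83, from -1.96 to -0.1 without STAT6 siRNA library 2 or 1). Only PSPH and MTHFD2L had both STAT6 siRNA values below both scramble values. For MTHFD2L this rested on few counts, 29 and 41 with scramble siRNA and 6 and 39 with STAT6 siRNA. MTHFD1L was at 113 and 125 against 103 and 121 CPM, SHMT1 at 120 and 86.3 against 98.8 and 74.3 CPM and MTHFD1 at 134 and 143 against 117 and 153 CPM. Their log2 fold changes were -0.13, -0.31 and -0.08, with SE of 0.56 to 0.58.

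For 6 of the 9 enzymes, libraries 1 and 2 differed within both siRNA groups by more than the groups did. From library 1 to library 2, MTHFD2 was higher by 1.57 on the log2 scale with scramble siRNA and by 2.05 with STAT6 siRNA, and PSAT1 by 0.78 and 1.14. In contrast, PHGDH was lower in library 2, at log2 differences of -0.68 and -1.2, and so was SHMT2, at -0.76 and -1.13. The other 2 were MTHFD1 (0.1 and 0.48) and MTHFD1L (0.16 and 0.34). The transcripts of MTHFD2 and PSAT1 hold 41.4% and 44.1% G and C, those of PHGDH and SHMT2 57.5% and 56.4%, and those of MTHFD1 and MTHFD1L 48.6% and 51.6%. Across genes, which are not independent replicates, the difference between the libraries was correlated with GC content (Spearman rank correlation). The coefficient was -0.75 with scramble siRNA and -0.82 with STAT6 siRNA, against -0.09 in Hep3B and 0.29 in the knockout. With GC and length offsets the log2 fold change of PHGDH was -0.14 in place of 0.09, and still no enzyme passed in a fit without the library number as a term.

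The effects of the knockout and of STAT6 siRNA were set against each other in one fit of the 14313 genes listed in both tables and passing the filter. None of the 9 enzymes passed this test, beside 11 genes in all (0.0769%). The largest difference with all libraries was that of PHGDH, whose log2 fold change was lower by 2.43 in the knockout than with siRNA (value -2.43, SE 0.76, 95% confidence interval -4.06 to -0.8, adjusted p = 0.349, edgeR). SHMT2 differed by -1.77 (SE 0.78, 95% confidence interval -3.45 to -0.1, adjusted p = 0.708) and MTHFD2 by -1.72 (SE 0.93, 95% confidence interval -3.72 to 0.27, adjusted p = 0.852). The order rested on single libraries. Without scramble siRNA library 2, MTHFD2 differed by -2.71 and PHGDH by -2.12, and without STAT6 siRNA library 1 by -2.38 and -1.64. Over the 8 libraries left out in turn MTHFD2 ranged from -2.71 to -0.42 and PHGDH from -2.93 to -1.64, and SHMT2 from -2.25 to -1.03, the latter without STAT6 siRNA library 1. With all libraries, an unadjusted p below 0.05 was found for PHGDH and SHMT2, beside 6.56% of all genes tested. Whether the enzymes responded differently to the perturbations was thus not resolved with 2 libraries per group.

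Other genes of the pathway were taken as lists. Of 12 other mitochondrial genes of glycine and folate metabolism, 2 rose in the knockout and none fell (4.5% of all genes rose). AMT, a subunit of the glycine cleavage system, rose from 3.65 and 4.57 to 18 and 16 CPM (scaled within the table, as for all genes of these lists; log2 fold change 2.05, SE 0.45, adjusted p = 0.0428). SARDH, which oxidizes sarcosine, rose from 5.62 and 3.06 to 25.5 and 15.9 CPM (log2 fold change 2.26, SE 0.51, adjusted p = 0.0468). The lowest value was that of SLC25A32, the mitochondrial folate carrier, at -1.23 (SE 0.38, adjusted p = 0.0959). The median of the list was 0.46, against 0.01 over all genes.

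Among 12 tested cytosolic genes of folate use and transport, FTCD, an enzyme of histidine breakdown that feeds folate, rose from 2.2 and 3.32 to 20 and 12.3 CPM (log2 fold change 2.54, SE 0.52, adjusted p = 0.0370). This 1 of 12 stood beside 4.5% of all genes that rose. None fell, beside 1.39% of all genes, and the lowest value was that of the purine synthesis enzyme GART (-0.82, SE 0.39, adjusted p = 0.229). TYMS, which makes thymidylate from a folate-bound carbon, stood at 99.9 and 93.5 CPM in Hep3B and 69.6 and 127 CPM in the knockout. The median of this list was 0.15.

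None of 12 genes of serine uptake and use passed in the knockout. Their values lay from -1.65 (SE 0.4, adjusted p = 0.0531) for SLC38A1, a neutral amino acid transporter, to 0.48 (SE 0.51, adjusted p = 0.592) for the serine racemase SRR, with a median of -0.76. Of 10 regulators, DDIT3, a stress transcription factor downstream of ATF4, fell from 160 and 112 to 29.6 and 35.1 CPM (log2 fold change -2.07, SE 0.37, adjusted p = 0.0267), beside 1.39% of all genes that fell. ATF4 stood at 1640 and 1260 CPM in Hep3B and 456 and 577 CPM in the knockout (log2 fold change -1.49, SE 0.45, adjusted p = 0.0895), and the highest value was that of the kinase EIF2AK4 (0.91, SE 0.4, adjusted p = 0.197). The median of the regulators was -1.08, and 9 of the 10 were below 0, beside 49.6% of all genes tested. In the siRNA comparison no gene of these lists passed, and the medians of the 4 lists were 0.05, 0.03, -0.1 and -0.1. There the lowest and highest log2 fold changes were -0.37 (SLC25A32) and 0.68 (SARDH) in the mitochondrial list, -0.37 (the methionine synthase reductase MTRR) and 0.55 (the folate polyglutamylating enzyme FPGS) in the cytosolic list, -0.57 (SRR) and 1.35 (SDSL) among genes of serine uptake and use, and -0.23 (ATF4) and 0.2 (ATF5) among the regulators, all at an adjusted p of 1.00 in edgeR.

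Genes of the cell cycle and markers of cell types were read beside these results. None of 15 cell cycle genes passed in the knockout, and their median was -0.2, with the lowest value for the replication helicase subunit MCM7 (-1.32, SE 0.41, adjusted p = 0.0986) and the highest for MKI67 (0.38, SE 0.52, adjusted p = 0.688). Their summed level was 2030 and 2880 CPM in Hep3B and 1340 and 2230 CPM in the knockout. Of 10 hepatocyte and hepatoma markers, TTR (3.14), FGB (2.53) and APOA1 (2.4) rose on the log2 scale in the knockout (4.5% of all genes rose), with adjusted p of 0.0223, 0.0413 and 0.0413, and the sum of the 10 went from 16700 and 12000 to 53000 and 31700 CPM. ALB was the most abundant, at 7460 and 6820 against 28400 and 13600 CPM, and AFP was the only one below 0 (-0.76, SE 0.72, adjusted p = 0.542). The 3 markers that rose and the 3 enzymes that fell did so in the same libraries, and their part in each other was not tested. In bulk RNA, fewer cells that express a gene and less of its RNA per cell cannot be told apart.

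Markers of other cell types included genes that were higher in the knockout libraries. Of 5 fibroblast markers 3 were listed in the knockout table, summing to 4.43 and 7.44 CPM in Hep3B and 101 and 77.5 CPM in the knockout. LUM rose from 0.624 and 0.738 to 85.5 and 54.2 CPM and made up most of this sum (adjusted p = 0.00384), and PDGFRB rose from 2.84 and 1.27 to 9.88 and 13.9 CPM (adjusted p = 0.0494), whereas COL3A1 and DCN were not listed. COL1A1 was the lowest of the 3 (log2 fold change 1.24, SE 0.79, adjusted p = 0.359, edgeR). Leukocyte markers summed to 47.6 and 7.68 CPM in Hep3B and 117 and 348 CPM in the knockout, nearly all from LYZ (log2 fold change 3.12, SE 0.93, adjusted p = 0.0894), with CD14 at 1.61 (SE 0.6, adjusted p = 0.146), PTPRC at 0.225 CPM or less and CD3E not listed. Of 4 endothelial markers PECAM1 alone was listed, at 0.77 CPM or less (log2 fold change 0.97, SE 1.03, adjusted p = 0.589). In the siRNA table the same sums were at most 15.6, 27.2 and 0.25 CPM. There the lowest and highest log2 fold changes were 0.53 (COL1A1) and 0.85 (PDGFRB) among fibroblast markers, -0.3 (LYZ) and 1.15 (CD14) among leukocyte markers, -0.35 (PCNA) and 0.4 (CDC20) among cell cycle genes, and 0 (ALB) and 0.73 (SERPINA1) among hepatocyte markers, all at an adjusted p of 1.00 in edgeR.

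The genes whose profile over the 8 libraries was nearest to that of an enzyme were found by the root mean square difference of log2 CPM, centred per gene, among 9527 genes. For MTHFD2 these were TXNRD1 (0.21), MEX3B (0.24), SLC4A5 (0.26), NFIB (0.26) and VLDLR (0.26). For PHGDH they were CBX2 (0.23), GOLGA2P10 (0.31), CCAR2 (0.35), EIF4EBP1 (0.36) and the amino acid transporter SLC1A5 (0.36). For SHMT1 they were PPIP5K1 (0.11), GEMIN6 (0.12), TTC4 (0.13), INPP5E (0.14) and UBE3B (0.14). Among the 8 enzymes other than MTHFD2L and ALDH1L2, which were too low to enter, PSPH and MTHFD1L were closest (0.37), and PHGDH and MTHFD2 were farthest apart (1.39). The 8 libraries include pairs that differ with GC content, as given above, which enters these distances.

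Some enzyme genes overlap neighbors in the tables. The span of MTHFD1 shares 10902 bases with ZBTB25, which had 36.5 to 118.6 counts in the knockout table against 1402 or more for MTHFD1. SHMT1 shares 197 bases with SMCR8, which was counted more often than SHMT1 in every library, and SHMT2 shares 33 bases with NDUFA4L2, which had 59 counts or fewer. Library preparation kept the strand, but whether counting used it is not given in the sources used here, and the share of reads that could be assigned to either gene was not measured.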

How the data were processed

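RNA purified with TRIzol was made into stranded mRNA libraries, and the submitters' processing notes name STAR, Partek and hg38 without versions. The authors deposited 2 tables of expected counts per RefSeq transcript, not normalized, with 33253 and 30650 transcripts. No listed transcript sums to less than 10 over its 4 libraries. Counts were summed per gene and rounded, and tested with edgeR 4.0.16 in R 4.3.3 (filterByExpr, TMM, glmQLFit, glmQLFTest) within each table over all genes, with Benjamini-Hochberg adjustment and a threshold of 0.05. The design named counts, and the values proved to be expected counts. The difference of the effects was fitted over 8 libraries, and transcripts were fitted separately. CPM used TMM factors, and lengths and GC content came from GENCODE 29. Confidence intervals have a level of 95%. DESeq2 1.42.0, other scalings and filters, GC offsets from mgcv 1.9.3, a block and leaving out each library were alternatives. Scripts were tested on simulated data.

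The enzymes, gene lists and tests were chosen with earlier results of these data known. All enzymes are named. From each other list every gene that passed is named, with its highest and lowest value, and for MTHFD2, PHGDH and SHMT1 the 5 nearest genes; ATF4, TYMS, ALB and the transcripts of SHMT2 beyond the test were named after their values were seen. Depth of 16266282 to 25353113 counts per library covers counting error only, and 2 libraries per group limit the precision. Gene names matched a RefSeq gene on the same chromosome for 14723 of 16038 names in the first table and 13735 of 14953 in the second. A few genes of the lists are not reported here.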

Additional observations from a re-analysis of the deposited data

Results flagged for a closer look

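The log2 ratio of SHMT2 to SHMT1 moved in opposite directions in the comparisons. It was lower in both SOX4 knockout libraries than the Hep3B mean (difference of means -1.95) and higher in both STAT6 siRNA libraries than the scramble mean (0.5). Without STAT6 siRNA library 1 the siRNA difference was 0.09, so that its size rested on that library. The log2 ratio of MTHFD2 to MTHFD2L differed from that of the controls by -0.74 in the knockout and 0.34 with siRNA, and without scramble siRNA library 1 by -0.37 in the latter, so that its siRNA direction rested on that library. STAT6 siRNA library 2 lay inside the range of the scramble libraries for the first ratio, and both STAT6 siRNA libraries did for the second. The difference between the comparisons was not tested for either ratio.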

How the results depend on the processing

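The library numbers 1 and 2 are shared by the groups, but no label says that they mark a day or batch. Deviations of same-numbered libraries from their group means correlated across genes at a Pearson r of -0.08 in the knockout comparison and 0.87 in the siRNA comparison. With the replicate block, 982 genes passed in the knockout comparison (PSAT1 was lost, adjusted p = 0.0551), 62 in the siRNA comparison (no enzyme among them, but STAT6 at log2 fold change -2.25, edgeR adjusted p = 4.1e-20), 97 for the difference and 516 transcripts in the knockout. With GC and length offsets and the block, 191 genes and 1 enzyme (PHGDH) passed in the knockout, and 343 genes and 1 enzyme with siRNA (MTHFD2, log2 fold change -0.47, edgeR adjusted p = 0.00645; STAT6 -2.4, adjusted p = 5.6e-47; SOX4 -0.48, adjusted p = 0.00879). There PHGDH was at -0.15 and MTHFD1 at 0.03, and with the offsets alone at -0.14 and 0.03, against 0.09 and -0.08. 

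In the knockout comparison DESeq2 called 2160 genes, 4 enzymes and 2406 transcripts, the stricter filter 518 genes, 2 enzymes and 420 transcripts, and the fit of all 8 libraries 438 genes and 1 enzyme. Offsets moved the share of higher calls to 66.3%, DESeq2 to 63.9%, from 648 of 849. For the difference, DESeq2 called 167 genes and the stricter filter 1. From the most counted transcript of each gene, the log2 ratio of SHMT2 to SHMT1 changed by -0.96 in the knockout and that of MTHFD1L to MTHFD1 by -0.42 with siRNA. The cause of these changes was not tested.

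Leaving out each library in turn gave 21 to 2298 genes, 7 to 2233 transcripts and 0 to 5 enzymes in the knockout comparison and 0 to 127 genes for the difference. The lone library of an arm is then assumed to vary like the others. Log2 fold changes that changed sign ranged from -0.57 to 0.27 (MTHFD1) and -1.42 to 0.11 (SOX4) in the knockout. With siRNA they ranged from -0.63 to 0.57 (PHGDH), -1.05 to 0.09 (PSAT1), -0.52 to 0.01 (SHMT1), -0.42 to 0.76 (SHMT2), -0.34 to 0.15 (MTHFD1), -0.32 to 0.03 (MTHFD1L), -1.93 to 0.44 (MTHFD2), -1.61 to 0.5 (SOX4), -2.07 to 0.46 (MTHFD2 NM_006636), and for SHMT2 -0.27 to 0.09 (NM_001166357), -0.43 to 0.53 (NM_001166359), -0.37 to 0.83 (NM_005412) and -0.58 to 0.01 (NR_048562). For the difference they ranged from -0.58 to 0.26 (MTHFD1) and -1.41 to 0.35 (MTHFD2L).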
